A study of Mus musculus with 10 samples.

Results

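Fibroblast regions closing after day 3 are stretches of accessible chromatin that had a peak in both fibroblast libraries and both day 3 libraries of a reprogramming series, and in no day 9 and no embryonic stem cell library. The peaks of all 10 libraries were merged into 208851 regions, and a library had a region when one of its peaks shared at least 1 bp with it. The rule kept 1609 regions, which is 0.77% of all regions, 3.49% of the 46089 regions called in both fibroblast libraries and 7.94% of the 20265 called in both fibroblast and both day 3 libraries. The members were thus selected on the presence or absence of peaks at 4 of the 5 stages, and what the members show at those stages is a description. Day 6 was not used in the choice.

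Accessibility was measured by ATAC-seq, in which a transposase inserts sequencing adapters into open DNA, in 2 libraries at each of 5 stages. The fibroblasts (MEF) were mouse embryonic fibroblasts of a C57BL/6 x 129 background that carried 2 transgenes: OKSM, a polycistronic cassette of Oct4, Klf4, Sox2 and Myc, at Col1a1, and M2rtTA, the activator that responds to doxycycline, at Rosa26. They were grown without doxycycline and were not sorted. DAY3, DAY6 and DAY9 cells had the same genotype and were kept for 3, 6 and 9 days in stem cell medium with doxycycline at 1 µg/ml and ascorbic acid at 50 µg/ml. DAY3 cells were a bulk population, whereas DAY6 and DAY9 cells had been sorted for the surface marker SSEA1, so that day and sorting cannot be told apart between DAY3 and DAY6. ESC is the embryonic stem cell line V6.5, grown on irradiated feeder cells without the cassette. In bulk samples, fewer cells with an open region and less opening per cell cannot be told apart.

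Most distal open regions of a differentiated cell are enhancers, which transcription factors keep free of nucleosomes. In fibroblasts, AP-1, Tead and Runx factors are known to occupy many of them, near genes for matrix, cytoskeleton and mesenchymal identity. When reprogramming factors are induced, these enhancers lose accessibility in steps while pluripotency enhancers gain it. The regions described here are among those that were still called at DAY3 and no longer at DAY9.

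No genome sequence was used here, so sequences are shown for the members that lie on promoters in RefSeq (build GRCm38.p6, 250 bases before to 50 bases after a start). The windows of 45 genes overlapped 44 members, and 4 of them are printed because they carry the sequence motifs that were commonest among these windows or belong to factors that read such motifs. The 4 were chosen after their values were seen. They are the windows of Cpa4, a carboxypeptidase (chr6:30568119-30568418, plus strand), Ankrd1, a well-known target of Yap and Tead (chr19:36119795-36120094, minus strand), Runx2, a Runx family transcription factor of bone and mesenchyme (chr17:44814578-44814877, minus strand), and Fam180a (chr6:35326092-35326391, minus strand). Capitals mark matches to the AP-1 motif TGANTCA, the Tead motif GGAATG, the Runx motif TGTGGT and the Cebp motif TTGCNNAA on either strand.
Cpa4: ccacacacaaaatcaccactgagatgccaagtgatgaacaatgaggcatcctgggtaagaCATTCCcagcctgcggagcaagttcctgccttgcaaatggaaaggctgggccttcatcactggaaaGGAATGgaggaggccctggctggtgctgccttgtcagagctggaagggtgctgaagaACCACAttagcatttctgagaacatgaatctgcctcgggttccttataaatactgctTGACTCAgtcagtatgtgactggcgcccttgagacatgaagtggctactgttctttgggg
Ankrd1: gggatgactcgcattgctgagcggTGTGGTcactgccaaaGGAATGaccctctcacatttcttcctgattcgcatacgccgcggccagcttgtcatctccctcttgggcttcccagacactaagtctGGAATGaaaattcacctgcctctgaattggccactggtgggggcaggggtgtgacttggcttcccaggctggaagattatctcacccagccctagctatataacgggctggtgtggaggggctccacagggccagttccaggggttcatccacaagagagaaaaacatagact
Runx2: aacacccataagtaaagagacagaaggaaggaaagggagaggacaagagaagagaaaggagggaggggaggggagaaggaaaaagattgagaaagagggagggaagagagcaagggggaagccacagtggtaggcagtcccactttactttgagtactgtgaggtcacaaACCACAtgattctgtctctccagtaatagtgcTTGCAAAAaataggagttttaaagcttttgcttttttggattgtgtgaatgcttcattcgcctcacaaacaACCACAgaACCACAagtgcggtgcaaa
Fam180a: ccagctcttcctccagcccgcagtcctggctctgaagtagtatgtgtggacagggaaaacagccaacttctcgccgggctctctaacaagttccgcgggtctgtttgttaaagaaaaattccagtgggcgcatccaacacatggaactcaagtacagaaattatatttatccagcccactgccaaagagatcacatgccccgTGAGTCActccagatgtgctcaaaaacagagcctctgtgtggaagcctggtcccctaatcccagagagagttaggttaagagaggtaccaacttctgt

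Cpa4 held 1 AP-1, 2 Tead and 1 Runx match, Ankrd1 held 2 Tead matches and 1 Runx match, Runx2 held 3 Runx matches and 1 Cebp match, and Fam180a held 1 AP-1 match. Among all 47 promoter windows that members overlapped, 13 (27.7%) held the AP-1 motif, against 7.81% of all 32851 RefSeq windows of that length. The Tead motif was in 16 (34.0%) against 14.7%, the Runx motif in 12 (25.5%) against 16.8%, and the Cebp motif in 8 (17.0%) against 10.8%. The octamer motif ATGCAAAT was in 0 windows, against 1.74% of all windows. The Klf motif GGGTGTGGC or GGGCGTGGC was in 1 window (2.13% against 4.19%) and the E-box CAGCTG in 7 (14.9% against 16.3%). For motifs as rare as the octamer and Klf motifs, 47 windows are too few to compare. Both strands were searched, and matches of different motifs may overlap. At least 1 of the AP-1, Tead and Runx motifs was in 30 of the 47 windows (63.8%), against 34.1% of all windows. On regions open in MEF only this share was 62.7%, near that of the members. It was 52.2% on regions persisting through DAY9 and 24.4% on regions open in MEF and DAY3.

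Base composition differed between the sets as well. The median GC content was 50.0% in the members' windows and 52.7% in all windows. It was 47.8% on regions open in MEF only and 54.7% on regions persisting through DAY9. In the 12442 windows on regions open in MEF and DAY3 it was 62.3%, and 4.36% of these held the AP-1 motif. The median window of a member had 6 CpG dinucleotides, against 7 in all windows. On MEF-only regions it had 4, on persisting regions 8 and on regions open in MEF and DAY3 22. The part of base composition in the motif shares was not tested. In 2 other fates the share was near or above that of the members: 34.0% of 268 windows on regions open in MEF only and 27.5% of 69 windows on regions persisting through DAY9 held the AP-1 motif. For the Tead motif these shares were 23.5% and 15.9%. They were 26.1% and 13.0% for the Runx motif and 18.7% and 10.1% for the Cebp motif, so that MEF-only windows lay above the members in both.

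Mature microRNAs are shown for 3 hairpins near members because these microRNAs are well studied, and they were picked for that after the 14 microRNA genes within 10 kb of a member had been listed. miR-206 and miR-133b are muscle microRNAs made from neighbouring hairpins, and miR-30a is a broadly expressed microRNA. Their mature sequences from RefSeq are given with the seed, bases 2 to 8, in capitals.
mmu-miR-206-3p: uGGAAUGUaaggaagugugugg
mmu-miR-133b-3p: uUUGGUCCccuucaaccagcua
mmu-miR-30a-5p: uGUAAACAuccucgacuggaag

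The seeds differ between all 3. One member, chr1:20677946-20678454, lay 0.556 kb from the Mir206 hairpin and 4.32 kb from the Mir133b hairpin. Its peak had a fold of 11.3 and 12.8 over the local background in MEF replicates 1 and 2, and of 3.01 and 4.47 in the DAY3 replicates. Both MEF values lay above both DAY3 values, and neither DAY6 library had a peak. The member next to Mir30a, chr1:23270876-23271964 at 0.305 kb, had folds of 5.04 and 5.04 in MEF, 6.39 and 4.63 at DAY3, and 7.41 and 6.14 in DAY6. There the MEF and DAY3 values overlapped and the region was still called in both DAY6 libraries. These regions do not by themselves show whether the microRNAs were made.

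The fold used here and below is the authors' own ratio of a peak's summit to its local background. A list with a higher background reaches a given p-value at a lower fold, so folds of different libraries are set side by side as descriptions, and strength is also given as a rank, the percentile of a peak's score within its own list. Lists held between 45497 and 88980 peaks. Sequencing depth is not given in the sources used here, and the background pileup recovered from each list, the commonest expected height, ran from 2.33 in DAY6 replicate 2 to 8.32 in MEF replicate 2. The labelled cells were checked at the gene ends of 10 fibroblast genes. Of these, 10 and 9 had a peak in the MEF libraries and 4 and 7 at DAY3. DAY6 and DAY9 lists had 5 and 4 each, and ESC lists 6 and 6. These genes thus did not set ESC apart from DAY3 to DAY9. Of 10 pluripotency genes, 2 and 4 had a peak in MEF and 10 and 9 in ESC. Of markers of other cells that a fibroblast culture could hold, MEF lists had a peak at 0 and 1 of 5 muscle genes, 1 and 1 of 5 endothelial genes, 1 and 1 of 5 immune genes and 4 and 2 of 5 nerve genes. ESC lists had a peak at 4 and 3 of the muscle, 3 and 2 of the endothelial, 2 and 2 of the immune and 4 and 3 of the nerve genes. A peak at these gene ends is thus no sign of such cells by itself. The part of other cells in the results was not tested. The 2 DAY3 libraries differed by 1.33 times the counting noise and the 2 DAY9 libraries by 1.42 times, against 3.61 to 8.11 times in the other pairs, so the replicates of DAY3, and those of DAY9, may not be independent samples. Their values are printed side by side to show each deposited list.

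At DAY6, the stage that the choice did not use, the members were part way lost. No DAY6 library had a peak in 824 of the 1609 members (51.2%, Wilson 95% interval 48.8 to 53.6%), 1 library had one in 487 (30.3%) and both had one in 298 (18.5%, 16.7 to 20.5%). By library, 606 members (37.7%) had a peak in replicate 1 and 477 (29.6%) in replicate 2, the list with the lower background pileup. The intervals cover counting error over regions only, and with 2 libraries no test across samples was made. Across all 20265 regions open in MEF and DAY3, 87.2% had a peak in both DAY6 libraries and 5.62% in none.

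The closest comparison is with the 970 regions that had peaks in both MEF, DAY3 and DAY9 libraries and in no ESC library, called here regions persisting through DAY9. Of these, 81.2% had a peak in both DAY6 libraries and 3.3% in none. In the whole set of regions, most of which were not called in both MEF libraries, the shares were 21.7% and 64.1%. Just outside the rule, 346 regions had a peak in 1 DAY9 library and in no ESC library. Their median DAY9 fold was 2.93 in replicate 1 and 2.87 in replicate 2, and 52.0% of them were called in both DAY6 libraries and 17.3% in neither. The regions at the edge of the rule thus lay between the members and the persisting regions in DAY6 calls.

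**Figure D1:**
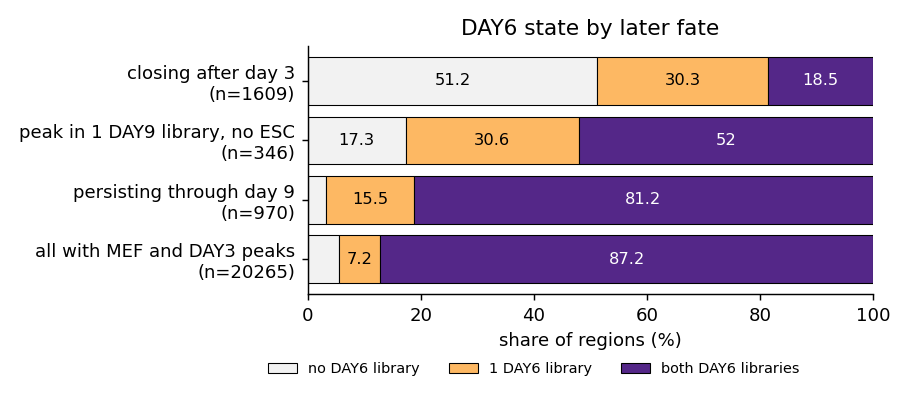
Share of regions (x axis, percent) with a peak in no, 1 or both DAY6 libraries, for the 1609 regions closing after day 3, the 346 regions with a peak in 1 DAY9 library only, the 970 regions persisting through DAY9 and all 20265 regions with MEF and DAY3 peaks. Both DAY6 libraries called 18.5% of the closing regions and 81.2% of the persisting ones.

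The members were strong in fibroblasts and weaker at DAY3. Their median fold was 8.25 in MEF replicate 1 and 4.78 in MEF replicate 2, and 4.24 and 4.15 in the DAY3 replicates. Persisting regions had medians of 6.70 and 3.93 in MEF and of 5.49 and 5.54 at DAY3. The order of the 2 sets was thus opposite at the 2 stages. All regions open in MEF and DAY3 had medians of 8.84 and 5.34 in MEF and of 6.25 and 6.33 at DAY3. These lay above the members' medians at both stages. In ranks, the median member stood at the 76.8th and 70.2nd percentile of the MEF lists and at the 44.1st and 41.6th percentile of the DAY3 lists, whereas the median persisting region stood at 67.0 and 57.1 in MEF and at 62.2 and 61.7 at DAY3.

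Region by region, both DAY3 folds lay below both MEF folds in 802 members (49.8%) and above both in 101 (6.28%). Among persisting regions these shares were 18% and 26.3%, and among all regions open in MEF and DAY3 they were 21% and 11%. The median change in log2 fold from MEF to DAY3 was -0.57 in the members, -0.01 in persisting regions and -0.14 in all. When the pileup was divided by the background pileup of its library instead, the median log2 change was -0.95, -0.07 and -0.26. These values come from the stages that chose the regions and are given with no test.

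**Figure D2:**
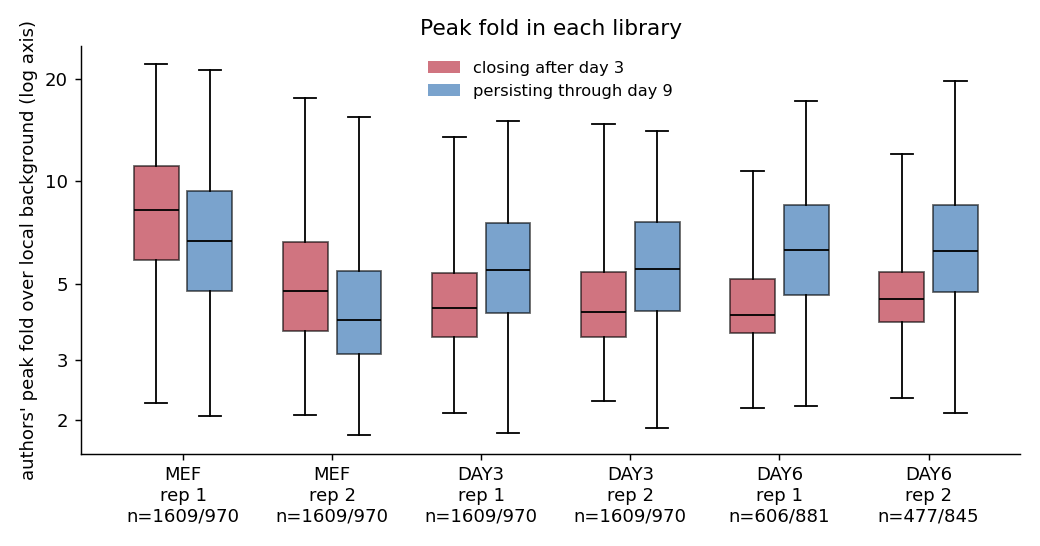
Authors' peak fold over local background (log axis) in each MEF, DAY3 and DAY6 library for regions closing after day 3 and regions persisting through DAY9; boxes span the quartiles, lines are medians, whiskers the lowest and highest value, and n gives the peaks of each set. The closing regions have the higher medians in MEF (8.25 against 6.70 in replicate 1) and the lower ones in DAY3 (4.24 against 5.49) and DAY6 (4.04 against 6.29).

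Strength at DAY3 and the DAY6 state went together. Members called in neither DAY6 library had a median DAY3 fold of 3.95 and 3.83, those called in 1 library 4.44 and 4.47, and those called in both 5.39 and 5.10. In MEF the same 3 groups had medians of 8.33, 8.16 and 8.31 in replicate 1 and of 4.83, 4.64 and 4.81 in replicate 2. The DAY6 groups were thus ordered by DAY3 fold and not by MEF fold.

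The members were parted into 4 groups of nearly equal size by their mean DAY3 rank, and the share called in both DAY6 libraries was 8.48% in the weakest group, 11.2% and 16% in the middle groups and 38.3% in the strongest. The share called in neither was 67.8%, 61.8%, 47% and 28.4%. Persisting regions within the same rank bounds were called in both DAY6 libraries in 55.2%, 62.7%, 76.5% and 92.5% of cases. In each group the members' share lay below that of the persisting regions, by between 46.8 and 60.5 percentage points. The sets differ by their DAY9 calls and DAY3 was used to choose both, so these shares are a description, and the part of DAY3 strength in the DAY6 calls was not tested.

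**Figure D3:**
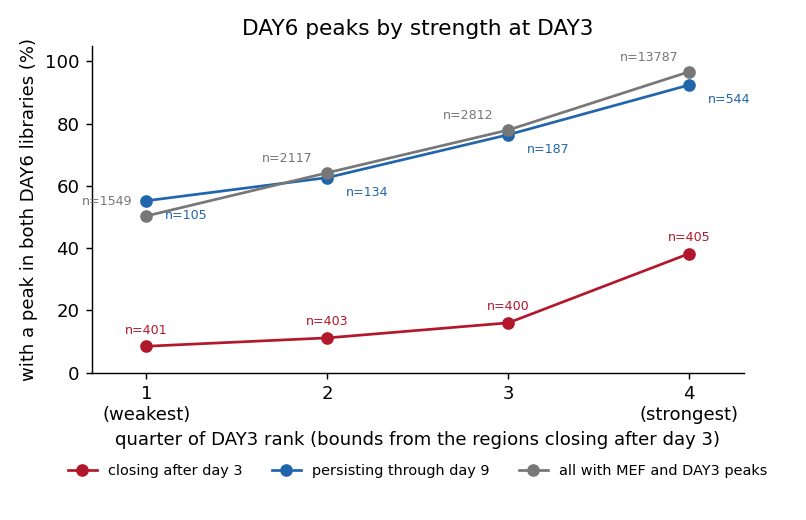
Share of regions with a peak in both DAY6 libraries (y axis, percent) in 4 groups of mean DAY3 rank (x axis, bounds set on the closing regions), with the number of regions at each point. The closing regions rise from 8.48% to 38.3% and stay below the persisting regions, which rise from 55.2% to 92.5%.

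Detection limits differ between the lists, and the fold that reached the lowest −log10 p-value of 5 at the background pileup was 3.37 and 3.61 for the DAY6 replicates. For DAY9 it was 2.64 and 2.63, and for ESC 3.35 and 2.94. The DAY3 limits were 3.01 and 3.03, and every member had to be called in both DAY3 lists. Shares at or above the lower limits of DAY9 and ESC replicate 2 were thus largely set by the rule. No conclusion on missing DAY9 or ESC peaks is drawn from them. In 1560 members (97.0%) the lower of the DAY3 folds was at or above the limit of DAY9 replicate 1, and in 1565 (97.3%) at or above that of replicate 2. For the ESC replicates this held for 67.3% and 92.9% of the members. For the higher DAY6 limit it held for 915 members (56.9%). Of these 915, 375 (41.0%) had no DAY6 peak, 315 (34.4%) had one in 1 library and 225 (24.6%) in both. The limit holds at the commonest background only, and its part in the missing DAY6 peaks was not tested.

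Where a member was still called at DAY6, its peak was low in the list. The median fold was 4.04 over 606 peaks in replicate 1 and 4.51 over 477 in replicate 2, at the 30.0th and 28.4th percentile of the lists. Persisting regions had 6.29 and 6.25, at the 61.8th and 57.2nd percentile. In the 298 members called in both DAY6 libraries, both DAY6 folds lay below both DAY3 folds in 115 (38.6%) and above both in 41 (13.8%). In the 788 such persisting regions it was 14.8% and 38.2%. A region with a weaker peak is less often called, so these values describe the surviving peaks and not all members.

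The strongest members, by mean rank over the MEF and DAY3 lists, were all still called in both DAY6 libraries. The first was chr1:40847342-40848151 inside Tmem182, which encodes a transmembrane protein. Its fold was 18.8 and 12.9 in MEF, 11.3 and 11 at DAY3, and 5.84 and 8.12 in DAY6. The values of the 3 stages did not overlap and fell in order of time. At chr8:36961778-36962768, 8.59 kb outside Dlc1, a GTPase-activating protein, it was 14.7 and 11.7 in MEF, 11.9 and 10.3 at DAY3, and 9.88 and 8.42 in DAY6. Here MEF and DAY3 overlapped, and DAY6 lay below both. A region 84.4 kb from Nr2f2, an orphan nuclear receptor of mesenchyme (chr7:70266920-70267550), had the highest MEF folds of these 10, 22 and 17.5, followed by 9.36 and 11.8 at DAY3 and 3.37 and 5.71 in DAY6. It also showed the stages apart from each other.

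Another 4 of the 10 lay inside or within 10 kb of a gene. The region near Slc43a3, a purine nucleobase transporter (chr2:84960995-84961931), went from 13.6 and 10.9 in MEF to 9.40 and 9.51 at DAY3 and 4.43 and 4.21 in DAY6. The one inside Ece1, the endothelin-converting enzyme (chr4:137954904-137955551), had 18.8 and 9.25, then 10.8 and 11, then 4.94 and 6.83. Members inside Tnik, a kinase of Wnt signalling (chr3:28522986-28524031), and Kansl1, a subunit of a histone acetyltransferase complex (chr11:104361543-104362283), had DAY3 folds of 9.47 and 7.43 and of 10.5 and 12.2. In each of these 4 regions the DAY6 folds lay below the DAY3 folds. The last 3 of the 10 were more than 100 kb from any gene, nearest to Epha3 (272 kb), an ephrin receptor, Hddc2 (151 kb) and Tmem167 (119 kb), and their DAY3 folds lay between 11.5 and 14.7.

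Strong members without any DAY6 peak existed too. The best ranked was chr1:172960384-172961105, 2.57 kb from the olfactory receptor gene Olfr16, with folds of 16.5 and 9.23 in MEF and 8.88 and 13.1 at DAY3. Its MEF and DAY3 values overlapped, and it was absent from both DAY6 lists. A region inside Opn5, a light-sensing receptor (chr17:42580254-42581314), had 12.6 and 7.27 in MEF and 10.2 and 9.09 at DAY3. The region 7.49 kb from Tgfbi, a matrix protein induced by TGF-beta (chr13:56600950-56602095), had 10.6 and 9.81 in MEF and 7.5 and 8.10 at DAY3. The last 2 lay inside Egln1, a prolyl hydroxylase that senses oxygen (chr8:124926218-124927027), and Pkhd1, the ciliary protein fibrocystin (chr1:20069595-20070262), with DAY3 folds of 8.88 and 7.66 and of 9.68 and 6.86. All 5 had DAY3 folds above both DAY6 limits.

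The members lay away from gene ends. Only 68 (4.23%) were within 1 kb of either end of a protein-coding gene, against 10.1% of all regions, 51.2% of the regions open in MEF and DAY3, 8.66% of persisting regions and 2.96% of the 17371 regions open in MEF only. Inside a coding gene lay 866 members (53.8%), against 51.3% of all regions, 76% of those open in MEF and DAY3 and 57.8% of persisting regions. The median distance to a gene end was 32.6 kb, and 225 members (14.0%) were more than 100 kb from any coding gene. Their median width was 776 bp, from 206 to 2206 bp. Exons and introns were not analysed here. By DAY6 state, 43 of the 824 members lost from both libraries (5.22%), 19 of those in 1 library (3.90%) and 6 of those in both (2.01%) were at a gene end.

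**Figure D4:**
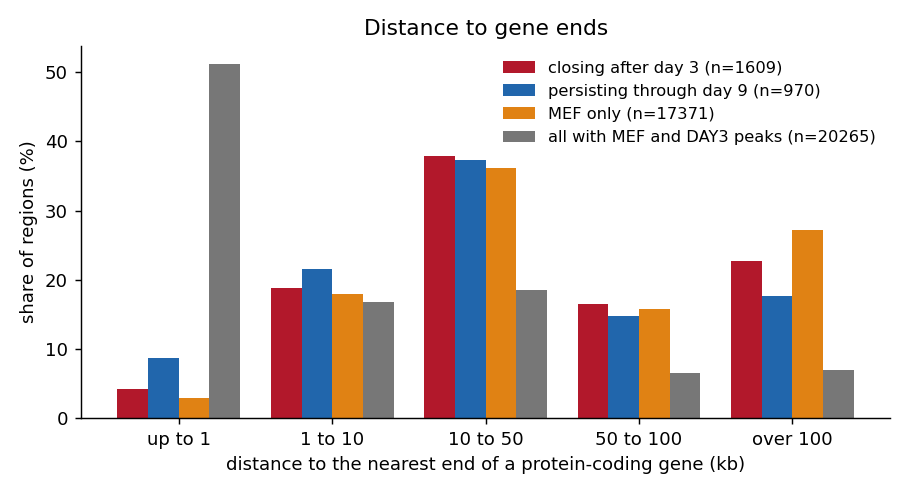
Share of regions (y axis, percent) by distance to the nearest end of a protein-coding gene (x axis, kb) for the closing regions, the persisting regions, the regions open in MEF only and all regions open in MEF and DAY3. The closing regions have 4.23% within 1 kb and 37.8% between 10 and 50 kb, the persisting regions 8.66% and 37.3% and the MEF-only regions 2.96% and 36.1%, whereas 51.2% of all regions open in MEF and DAY3 lie within 1 kb.

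The 5 members at gene ends with the best ranks were of mixed DAY6 state. Tnni3k, a kinase of heart muscle (chr3:155056336-155058240), had folds of 8.30 and 5.10 in MEF, 6.75 and 8.05 at DAY3 and 4.81 in DAY6 replicate 2 only. At Il17ra, the receptor of interleukin 17 (chr6:120482631-120483714), they were 13.7 and 8.69, then 5.36 and 7.51, then 3.61 in DAY6 replicate 2 only. MEF and DAY3 overlapped at Tnni3k and were apart at Il17ra. Capza2, a capping protein of actin filaments (chr6:17665911-17666811), Casp12, a caspase (chr9:5344992-5345983), and Ifi211, an interferon-induced gene (chr1:173912641-173913918), had no DAY6 peak. At Casp12 the folds were 11.1 and 9.12 in MEF and 6.19 and 6.22 at DAY3, and at Ifi211 10.7 and 9.50 and 4.92 and 5.10. At both the MEF values lay above the DAY3 values.

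The member on the Runx2 window, chr17:44814484-44815328, had folds of 10.6 and 3.43 in MEF and 6.49 and 4.94 at DAY3 and no DAY6 peak. A second member inside Runx2 (chr17:44709586-44710434) had 12.2 and 6.65, then 5.87 and 7.01, and was still called in both DAY6 libraries at 6.96 and 7.51. The Ankrd1 member (chr19:36119721-36120386) had 7.78 and 6.55 in MEF, 3.17 and 3.35 at DAY3 and 3.91 in DAY6 replicate 2 only, with the MEF values above all later ones. Of the 47 windows, 23 belong to coding genes and 24 to noncoding ones.

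Members were mostly single. Within 10 kb of another member lay 89 (5.53%), in 43 pairs and 1 group of 3, against 26% of MEF-only regions, 48.6% of MEF regions and 2.68% of persisting regions; larger sets have closer neighbours, so these shares are not on one footing. The group of 3 was inside Slc14a2, a urea transporter gene on chromosome 18, and spanned 8.08 kb. None of the 3 had a DAY6 peak, and their DAY3 folds ran from 3.35 to 7.02. The closest pair spanned 1.87 kb and lay 969 kb from Gm15501. A further pair was inside Kctd10, an adaptor of ubiquitin ligases, and pairs lay near Hes1, a target of Notch (149 and 154 kb away), and Fam50b. In 13 of the 44 clusters (29.5%) all members had the same DAY6 state. Over all members, 51.2% had a peak in no DAY6 library, 30.3% in 1 and 18.5% in both. How often unrelated members share a state was not computed, so nothing about clusters is read from the 29.5%. At Hes1 one region (chr16:29915237-29915890) kept folds of 8.23 and 4.81 in DAY6, after 7.25 and 9.06 at DAY3, and its neighbour (chr16:29911162-29911705) was called in 1 DAY6 library at 3.87.

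A region open in MEF only lay within 10 kb of 480 members (29.8%), against 23.8% of persisting regions, and any other MEF region near 892 (55.4%) against 54.4%. A persisting region lay within 10 kb of 33 members (2.05%). The MEF-only set, with 17371 regions, is far larger than the persisting set, with 970. Inside coding genes, away from their ends and with a known strand, 615 members stood at a median of 48.0% of the gene's length from its start, in genes with a median length of 142 kb. For persisting regions it was 48.3% and 126 kb.

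By the gene they lie in, or the nearest one within 100 kb, 1384 members (86.0%) were assigned to 1168 genes, of which 994 had 1 member and 174 had several. At least 1 MEF-only region was assigned to 892 of the 1168 genes (76.4%), a region open in all 10 libraries to 889 (76.1%) and a persisting region to 159 (13.6%). Among all 21887 coding genes, such regions were assigned to 6496, 11628 and 802 genes. For the 802 genes of persisting regions, 66.6% had a MEF-only region and 75.9% a region open in all 10 libraries. A gene end with a peak in both DAY9 libraries was found in 914 (78.3%) of the members' genes, against 13992 of the 21887 coding genes. For the genes of persisting regions this share was 81.7%, and for those of MEF-only regions 75%. A gene end with a peak in both MEF libraries was found in 869 of the members' genes (74.4%), against 12336 of all coding genes.

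Atp10a, a phospholipid flippase, and Fmnl2, a formin that builds actin filaments, had 5 members each. At Atp10a all 5 were still called at DAY6, 4 in 1 library and 1 in both. The last, chr7:58788106-58789175, had folds of 8.01 and 4.61 in MEF, 9.68 and 8.77 at DAY3 and 9.88 and 6.01 in DAY6, so that both DAY3 values lay above both MEF values. At Fmnl2, 3 were called in 1 DAY6 library and 2 in both. Slc14a2 had 4 members, all without a DAY6 peak, and Lpp, a focal adhesion protein, had 4, of which 2 were without one. Mbp, Slit3, Col1a2, St3gal1, Cacna2d1 and Arhgap10 had 3 each. The first is the myelin basic protein, Slit3 a guidance ligand, St3gal1 a sialyltransferase, Cacna2d1 a calcium channel subunit and Arhgap10 a GTPase-activating protein. Lpp also had the most MEF regions of these 10 genes, 34, of which 21 were open in MEF only. Long genes hold more regions of any kind: Lpp spans 599 kb and Slit3 587 kb.

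**Figure D5:**
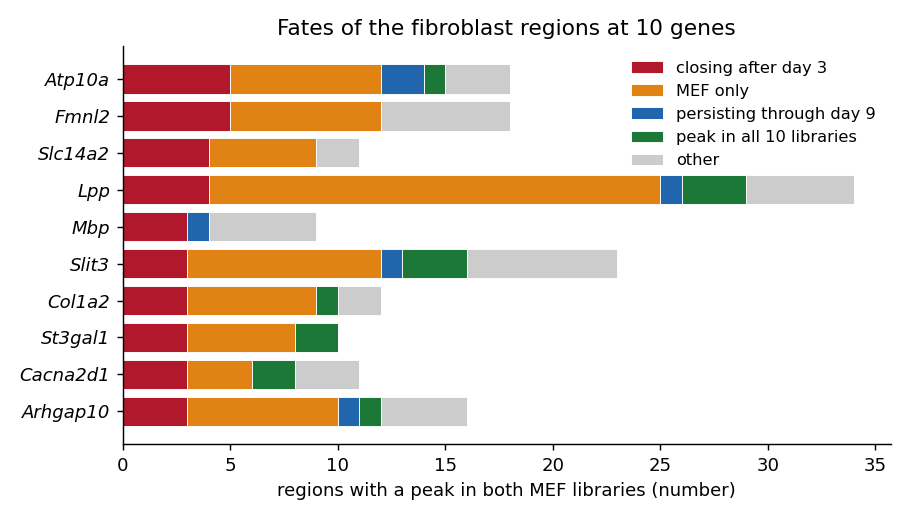
Number of regions called in both MEF libraries (x axis) and assigned to the 10 genes with most closing regions, by fate. Atp10a and Fmnl2 have 5 closing regions each of 18, and Lpp has 21 regions open in MEF only of 34.

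Gene lists of fibroblast biology took in 83 members (5.16%) at 65 of their 240 genes, against 3.06% of MEF regions, 3.63% of MEF-only regions, 2.99% of persisting regions and 2.34% of all regions. Of these 83, 43 had no DAY6 peak, 21 had one in 1 library and 19 in both, close to the split over all members. Inside a gene of the lists lay 44 (2.73%). The shares of the other sets also count the nearest gene within 100 kb and were not computed for inside genes only. The 2.73% thus has no matching value.

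Among matrix genes, collagens had 5 members (0.311%, against 0.286% of MEF regions and 0.466% of MEF-only regions) at 3 of 18 genes. Other matrix genes had 15 (0.932% against 0.36% and 0.449%) at 10 of 32. Col1a2, a chain of type I collagen, had 3 outside the gene. The one at 16.4 kb (chr6:4487973-4489178) had folds of 5.29 and 6.12 in MEF and 8.29 and 7.62 at DAY3, and no DAY6 peak. Both DAY3 folds thus lay above both MEF folds. The one at 87.8 kb (chr6:4416973-4417792) had 6.25 and 4.10, then 4.79 and 4.64, and was still called in both DAY6 libraries at 4.75 and 4.49. Col5a1 and Col4a2 had 1 each, without a DAY6 peak. Fbn1, fibrillin of the elastic microfibrils, had 3, with 1 in each DAY6 state. Loxl2, which cross-links collagen, Thbs2, a thrombospondin, and Mmp2, a matrix protease, had 2 each. Both Mmp2 members lacked a DAY6 peak; the one inside the gene (chr8:92850221-92850682) had 2.36 and 2.76 in MEF and 4.08 and 4.64 at DAY3.

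Actin and adhesion genes had 14 members (0.87% against 0.425%) at 11 of 29 genes, and fibroblast surface proteins and integrins 9 (0.559% against 0.239%) at 8 of 21. Besides Lpp, Acta2, the smooth muscle actin, and Vcl, vinculin of focal adhesions, had 1 each. The Acta2 member (chr19:34265562-34266235), at 9.98 kb, had folds of 12.7 and 11 in MEF, 3.97 and 8.13 at DAY3 and 3.59 in DAY6 replicate 1 only. Both DAY3 values lay below MEF, and they differed from each other more than the MEF values did. Pdpn, the surface protein podoplanin, had 1 member (chr4:143278214-143278933) with a fold of 12.5 in either MEF library, then 5.08 and 6.55 at DAY3, then 4.22 and 3.56 at DAY6, with the stages apart. Nt5e, the ectonucleotidase CD73, had 2 without a DAY6 peak, and Cav2, caveolin 2, and Anxa2, an annexin, had 1 each.

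Transcription factors were reached as well. AP-1 genes had 5 members (0.311% against 0.113%) at 3 of 13 genes: 3 at Jun, 1 at Atf3 and 1 at Jdp2, all outside the genes. Of the Jun members, the one at 46.0 kb (chr4:95098176-95098792) had folds of 5.28 and 3.76 in MEF and 8.57 and 5.59 at DAY3, and the one at 15.9 kb (chr4:95032558-95033120) had 9.06 and 7.05 and then 5.39 and 3.19. They moved in opposite directions from MEF to DAY3, and neither had a DAY6 peak. Mesodermal and fibroblast factors had 9 (0.559% against 0.532%, and 0.587% of MEF-only regions) at 8 of 40 genes. They included 2 at Glis3 and 1 each at Nr2f2, Mkx, a tendon homeobox factor, and Twist2. Of these 9, 7 had no DAY6 peak, against 51.2% of all members, and 9 regions are few for such a comparison. Mesenchymal transition factors and cadherins had 5 (0.311% against 0.154%) at 4 of 10 genes, namely Tcf4 with 2, Twist2, Zeb2 and Zeb1, repressors of epithelial genes. None of the 5 was called in both DAY6 libraries, against 18.5% of all members, and 5 regions are too few to compare. Runx and Cebp factors had 2 (0.124% against 0.089%, and 0.309% of persisting regions), both at Runx2.

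Signalling genes made up the rest. The TGF-beta pathway had 8 members (0.497% against 0.297%) at 7 of 21 genes, with 2 at the ligand gene Tgfb2 and 1 each at Tgif1, a repressor, and Smad6, an inhibitor, among others. Growth factor ligands and receptors had 10 (0.622% against 0.378%) at 9 of 33 genes, with 2 inside Egfr, the EGF receptor, and 1 each at Fgf2, a fibroblast growth factor, Tnfrsf11b, osteoprotegerin, and Gas6, a ligand of Axl. The Fgf2 member (chr3:37360521-37361337) had 8.33 and 7.71, then 7.46 and 6.38, and no DAY6 peak. The Tead and Yap pathway had 2 (0.124% against 0.217%), at Ankrd1 and Tead1. The share of persisting regions was 0.515% for actin and adhesion genes. It was 0.412% each for other matrix genes, fibroblast surface proteins, the TGF-beta pathway and mesodermal factors. For collagens and the Tead and Yap pathway it was 0.206%, for mesenchymal transition factors 0.103%, and for AP-1 genes and growth factors 0%. Each of these shares rests on at most 5 regions.

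Lists of other cells, and of genes that every cell uses, held 0 to 2 members each. The rule left out any region with an ESC peak, which bears on the pluripotency list. Pluripotency genes had 0 members at 18 genes, against 0.0759% of MEF regions, and genes that every cell uses had 0 at 10 genes, against 0.0412%. Epithelial genes had 2 (0.124% against 0.0477%), at Tjp1 and Cldn4, both of cell junctions. Muscle (Chrna1, 0.0477% of MEF regions), endothelial (Cdh5, 0.0868%), immune (Ptprc, 0.0239%) and nerve genes (Elavl4, 0.0304%) had 1 member each (0.0622%), none with a DAY6 peak. With 0 to 2 members a list these shares say little about the list, and they are no contrast with the fibroblast lists.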

How the data were processed

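ATAC-seq peak lists of 10 libraries, 2 at each of 5 stages, were used as the authors deposited them, 1 list per library with 10 columns. Per the submitters' processing notes, Bowtie2 2.3.2, deepTools 2.3.6 and MACS2 2.1.1 were used with build mm10. Filters, duplicate handling and transposase offset are not given in the sources used here. Each peak carries a deposited score, a fold (a linear ratio of summit to local background) and the authors' −log10 p-value and −log10 q-value. The lists hold no summit position. For peaks up to a −log10 p-value of 300, a whole pileup was recovered from fold and p-value, with a tolerance of 0.01, in at least 99.997% of peaks, and it was used for the background pileup and the replicate noise.

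Peaks overlapping by at least 1 bp were merged. Where a region held several peaks of a library, the peak with the highest −log10 p-value gave its fold. Groups come from the sample titles. Replicates may be technical where the labels name no separate cultures. Genes are the 21887 protein-coding genes of RefSeq GRCm38.p6, whose table gives no strand, so either end counted as a gene end. All results are counts, shares and medians with no test. The DAY6 shares and the gene-end shares by DAY6 state have Wilson 95% intervals that cover counting error only. Named are the 10 strongest members by mean rank over the MEF and DAY3 lists, the 10 genes with most members, the 5 largest clusters, up to 4 genes per gene list, and the 5 strongest members at gene ends, with both and with no DAY6 peaks. The members and the 18 gene lists were chosen with earlier results of these data known. Alternatives covered list length, list strength, overlap, window size, each library left out, absence rules and distances. The merging with the membership rule, and the pileup recovery, were tested on simulated data. The other steps were not. Python 3.11.15, pandas 2.3.3 and numpy 2.4.6 were used. Some genes that this rule names are not reported here.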

Additional observations from a re-analysis of the deposited data

How the results depend on the processing

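The number of members was 2235 with every list limited to the length of the shortest, 684 with the top 50% of each list, 1239 with peaks covering at least 50% of a region, 2308 when 1 of the 2 DAY9 and ESC lists could hold a peak, and 1625 with windows of 500 bp on peak centres, an alternative chosen after seeing the data because the planned windows on summits could not be run. It ran from 1609 to 2348 with 1 library left out; the share called in both DAY6 libraries then ran from 13.6% to 37.7%, the share called in none from 47.9% to 70.4%, the gene-end share from 3.92% to 4.63% and the clustered share from 5.50% to 6.84%. The highest DAY6 shares come from leaving out a DAY6 library, which leaves 1. The share called in both was 13.2% with peaks covering 50% of a region and 25.9% under the relaxed absence rule. The share called in none was 56.3% with lists of equal length, 56.9% with 50% of a region covered and 42.6% under the relaxed rule. The gene-end share was 5.50% and 5.65% under the first and second of these settings and 8.58% within 2.5 kb. The clustered share was 1.75% in the top 50% of each list, 4.12% with 50% of a region covered, 6.76% under the relaxed rule, 2.86% with a gap of 5 kb and 10.8% with 25 kb. The fibroblast list share was 2.73% inside genes only. All other values stayed within their interval or, for the count, within 1.5 times. Of the 1609 members, 1329 (82.6%) overlapped a member of the lists of equal length. The cause of these moves was not tested. No paired analysis was possible because the results come from no test. Calls at low depth need a higher fold, and the lower DAY3 fold reached the DAY6 limit of 3.61 in 56.9% of members.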

Other observations

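The X chromosome held 16 members, 1.94 per 100 MEF regions, against 2.64 (chromosome 11) to 4.33 (chromosome 6) on the autosomes, and the Y chromosome held 0 members among 32 MEF regions. Of the regions open in MEF and DAY3, 98 had peaks in no DAY9 library and in both ESC libraries, and 34.7% of these were called in both DAY6 libraries and 32.7% in neither.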
